A study of Mus musculus with 6 samples.

Results

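The Gimap genes lie side by side on mouse chromosome 6 and encode the GTPases of the immunity-associated protein (GIMAP) family. The 8 clustered Gimap genes of the deposited count table, out of 45706 genes in all, were taken in the order of their start, which gives Gimap8, Gimap9, Gimap4, Gimap6, Gimap7, Gimap1, Gimap5 and Gimap3. Their RNA levels were compared between hematopoietic stem and progenitor cells of control mice and of mice with an induced knockout of Setd1b, a histone H3 lysine 4 methyltransferase, in order to see whether the cluster moved together. The genes were singled out with this comparison already known. Their own values are therefore given as a description, without p-values, and no support is drawn from them.

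GIMAP proteins are small GTPases that share the AIG1 type of GTP-binding domain, and several of them are anchored in membranes of the endoplasmic reticulum, Golgi apparatus, lysosome or mitochondrion. They are best known from lymphocytes, whose survival depends on some of them, and mice or rats that lack GIMAP5 lose T cells. In the bone marrow, GIMAP5 is also known for a role in the maintenance of hematopoietic stem cells.

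RNA of LSK cells (Lin- Sca-1+ c-Kit+), the bone marrow fraction that holds the hematopoietic stem cells and early progenitors, was sequenced from 3 Ctrl and 3 cKO mice with 1 library per mouse. Ctrl mice were Setd1b HET (FD/+; RC/+) and cKO mice Setd1b HOM (FD/FD; RC/+), all male C57BL/6 of 16 weeks except for cKO 3, which was 17 weeks old. FD is the conditional allele and RC the Rosa26-Cre-ERT2 allele, whose tamoxifen-dependent Cre acts in nearly all tissues, so that LSK cells were not the only cells to recombine. All mice, controls included, carried RC and received 4.5 mg tamoxifen a day by gavage on 4 days and, after 3 days of pause, on 2 further days, and the cells were taken 3 days after the last dose. The Ctrl mice thus carry 1 conditional Setd1b allele and are not wild type. The paper calls both groups littermates, without tying single mice to each other. Mice AI03, AI54 and AI56 are called Ctrl 1 to 3 here, and AI02, AI55 and AH74 are called cKO 1 to 3. Values of single mice always follow this order. Since mice are the replicates, p-values set the difference between groups against the variation between mice, estimated with information from all genes tested.

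The libraries held between 13003573 and 21277519 counted reads. Their numbers in the header of the table fall into 2 groups, with Ctrl 1, cKO 1 and cKO 2 in the first and Ctrl 2, Ctrl 3 and cKO 3 in the second. What these groups stand for is not given in the sources used here, so differences were also taken within each of them. Setd1b itself (ENSMUSG00000038384, chromosome 5) was 213 ± 16.2 CPM (the count scaled to the total of its library, mean ± SD, n = 3) in Ctrl and 292 ± 21.1 CPM in cKO (n = 3), a log2 fold change of 0.46 (SE 0.073, adjusted p = 0.0015 with edgeR's quasi-likelihood test). The deletion removes exon 5 only, and counts over the whole gene do not resolve it, so that this level does not check the genotypes. Ctrl and cKO stand below for the libraries labelled as such. Kit and Ly6a, which encode the c-Kit and Sca-1 of the gate, had log2 fold changes of -0.04 and -0.23 (adjusted p = 0.84 and 0.33, edgeR). Of 6 genes for the gate and for subsets within it, 0 rose and 0 fell past an adjusted p of 0.05 in edgeR, and 2, Flt3 and Cd48, had an unadjusted p under 0.05 on the lower side. Of 15184 genes tested, 7.67% differed between the groups by this threshold.

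The cluster spans 119.3 kb (chr6:48647234-48766519, mm10). Gimap8, Gimap9, Gimap4, Gimap7, Gimap1 and Gimap5 are read from the plus strand, and Gimap6 and Gimap3 from the minus strand. All 8 genes matched a RefSeq promoter window in GRCm38.p6, which covers 250 bases before and 50 after a transcription start. The 120 bases before the start are shown for Gimap5, which had the largest fold change, Gimap6, the only gene fitted lower in cKO, and Gimap1, the most abundant per length. Capitals mark AGGAAG or CGGAAG on either strand, the core letters that ETS family transcription factors can bind, and the sequences run 5′ to 3′ on the strand of the gene.
Gimap5, chr6:48746077-48746196, plus strand: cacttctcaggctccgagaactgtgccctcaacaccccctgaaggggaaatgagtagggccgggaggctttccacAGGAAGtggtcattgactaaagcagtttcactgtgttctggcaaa
Gimap6, chr6:48708245-48708364, minus strand: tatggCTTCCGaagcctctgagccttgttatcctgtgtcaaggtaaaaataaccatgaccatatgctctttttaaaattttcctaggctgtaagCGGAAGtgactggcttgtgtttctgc
Gimap1, chr6:48738927-48739046, plus strand: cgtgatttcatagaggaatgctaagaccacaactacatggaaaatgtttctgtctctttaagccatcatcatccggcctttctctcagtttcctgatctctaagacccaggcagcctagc

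The printed stretch of Gimap1 holds no such core, but its whole 300-base window does. Gimap8 has 2 windows, which overlap each other, so that the 8 genes have 9. AGGAAG or CGGAAG was found in 9 of these 9 windows, against 46.5% of 32851 mouse promoter windows. AGGAAG alone was in 7 windows of 7 genes (35.4% of all windows) and CGGAAG in 4 windows of 3 genes (16.9%). The core letters of RUNX factors, TGTGGT, were found in the windows of 3 genes, Gimap4, Gimap7 and Gimap1, and in 16.8% of all windows. The GATA letters AGATAA (11.2% of all windows) and an element of IRF factors (3.44%) were found in 0 of the 9. All motifs were searched on both strands, matches of AGGAAG and CGGAAG may overlap in part, and the letters were chosen after the expression values had been seen. They are a description of the sequence and not evidence of binding.

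The ratio of observed to expected CpG dinucleotides in the Gimap windows lay between 0.104 (Gimap7) and 0.325 (Gimap9), below the median of 0.384 over all windows, and 35.8% of all windows reached 0.6, a usual bound for CpG islands. SETD1 complexes are known for binding to CpG islands, through a CpG-binding subunit, which is why the composition is given. Of 9846 tested genes with a promoter window, 4.53% were called higher in cKO and 4.18% lower. Among those with no window above the highest Gimap value, a bound that the Gimap genes themselves set, 8.44% of 948 were called higher in cKO and 8.86% lower. Among those with a window at or above 0.6, 3.60% of 7476 were called higher and 3.71% lower. The Gimap genes are themselves among the 948, and a link between the CpG content and the calls was not tested.

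The coding sequences are less alike than the order of the genes on the chromosome. Gimap5 and Gimap3 are the closest pair, with identical bases at 89.6% of the shorter coding sequence. Every other pair without Gimap8 shared between 48.9% and 65.5% of the bases of the shorter member. Gimap8, with 2064 coding bases against 873 to 984 in the other 7 genes, codes for several GTPase domains in a row and was left out of this range. The longest identical run of Gimap5 and Gimap3 is shown because a read inside it cannot be assigned to either gene. It takes up coding bases 187 to 326 of Gimap5 and 175 to 314 of Gimap3, counted from the A of the start codon, and is 140 bases long, more than the 75 bases of a read.
Gimap5 and Gimap3, shared run: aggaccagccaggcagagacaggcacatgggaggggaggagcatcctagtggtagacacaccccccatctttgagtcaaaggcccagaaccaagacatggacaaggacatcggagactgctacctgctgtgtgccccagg

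Of all windows of 75 bases in the GENCODE M21 transcripts of Gimap5, 4.42% also occur in Gimap3, and 3.32% of those of Gimap3 occur in Gimap5. The deposited model of Gimap3, on which reads were counted, has only 906 exon bases, against 2577 in GENCODE M21. It covers little but the coding sequence, where the shared run lies, so that the shared part of it is larger than 3.32%. Reads within shared windows were not counted for either gene, since only uniquely aligned reads were used. Gimap8, Gimap9, Gimap4 and Gimap6 share no window with any other gene, and Gimap1 shares 0.617% of its windows with Gm10310. Exons of Gimap7, Gimap1 and Gimap5 also overlap those of the read-through model Gm28053 on the same strand, over 81, 98 and 109 bases, or 6.38%, 5.24% and 4.63% of their exon bases. Reads over such bases were left unassigned in every library, and Gm28053 itself had 1 count or less in each.

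All 8 genes passed the filter on low counts and were tested. In cKO cells 5 of the 8 were past the threshold on the higher side, namely Gimap8, Gimap9, Gimap4, Gimap1 and Gimap5, and 0 on the lower side, beside 3.88% of all genes tested on the higher side and 3.79% on the lower. The ranges of the groups did not overlap for 6 genes, beside 27.3% of all genes tested. These were the same 5, higher in cKO (14.0% of all genes tested), and Gimap6, lower in cKO (13.4%). The ranges of Gimap7 and Gimap3 overlapped. The median log2 fold change was 0.61 over the 8 genes and 0.00 over all genes tested. Because the genes were chosen on this comparison, nothing is read from these counts. In bulk RNA, a change in the number of cells of a type and a change in RNA per cell cannot be told apart.

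**Figure D1:**
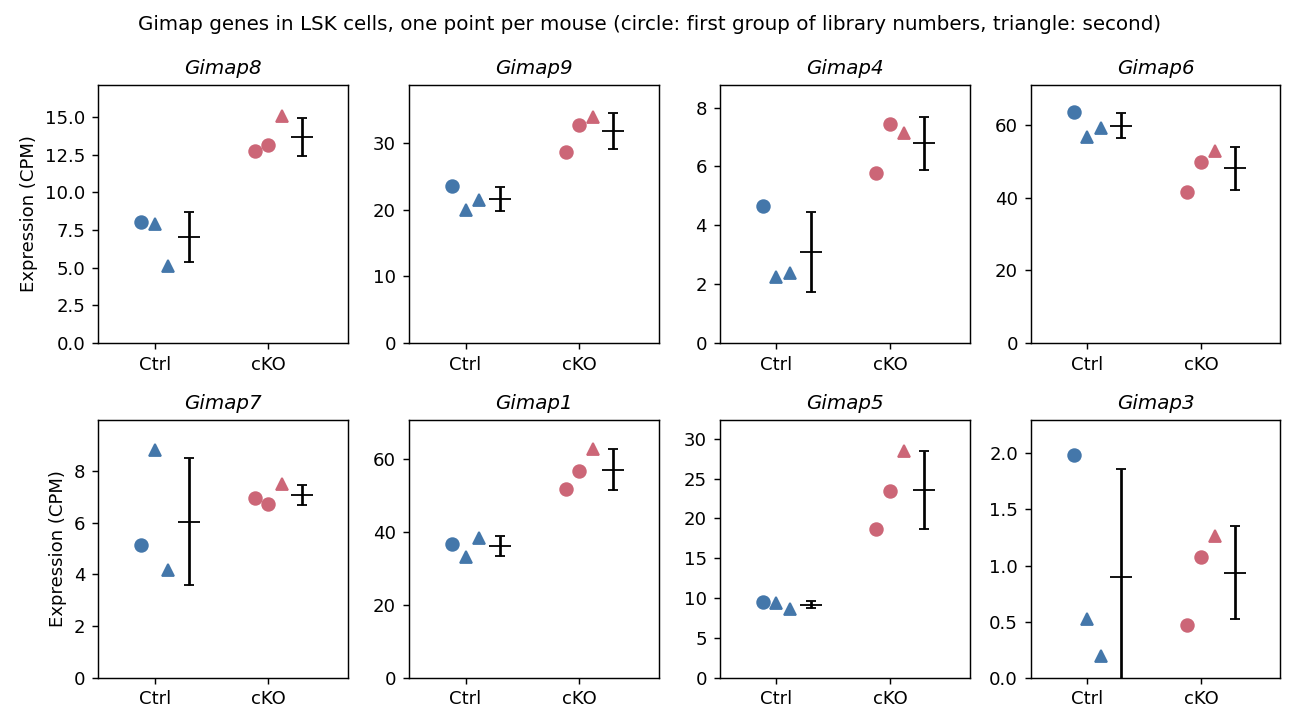
Expression in CPM (vertical axes, each from 0) of the 8 Gimap genes in the order of their start, in 3 Ctrl (blue) and 3 cKO (red) mice. Points are mice, circles and triangles the first and second group of library numbers, and black bars the mean ± SD of each group (for Gimap3 in Ctrl the lower bar ends at the axis). Groups stand apart with cKO above Ctrl for Gimap8, Gimap9, Gimap4, Gimap1 and Gimap5, stand apart with cKO below Ctrl for Gimap6, and overlap for Gimap7 and Gimap3.

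Gimap5 (ENSMUSG00000043505, chr6:48746197-48754210) encodes the family member that is anchored in lysosomal membranes and whose loss causes lymphopenia in rodents. It was at 9.57, 9.34 and 8.64 CPM in the Ctrl mice and at 18.7, 23.4 and 28.5 CPM in the cKO mice. The Ctrl mice lay close together, and the lowest cKO mouse was above all of them. The mean was 9.18 ± 0.484 CPM (SD, n = 3) in Ctrl and 23.5 ± 4.89 CPM in cKO (n = 3), a log2 fold change of 1.36 (SE 0.155), or 2.56-fold. Within the first group of libraries the log2 difference was 1.12, and within the second it was 1.65. Among the 589 genes called higher in cKO, Gimap5 held rank 61 by fold change.

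Gimap1 (ENSMUSG00000090019, chr6:48739054-48743790), next to it, encodes a GTPase of the Golgi apparatus that mature T and B cells need to survive. It was at 36.8, 33.0 and 38.4 CPM in the Ctrl mice and at 51.7, 56.7 and 62.9 CPM in the cKO mice, with no overlap. The log2 fold change was 0.66 (SE 0.0957), with 0.56 within the first group of libraries and 0.82 within the second. The antisense gene Gimap1os, which overlaps 103 exon bases of Gimap1 on the other strand, had a log2 fold change of -0.28 (SE 0.364, adjusted p = 0.71, edgeR). The counting used strand, so that reads of Gimap1os were not added to Gimap1.

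Gimap9 (ENSMUSG00000051124, chr6:48676129-48679114) is a small member of the family about which less is known. It was at 23.6, 19.9 and 21.4 CPM in the Ctrl mice and at 28.7, 32.7 and 33.9 CPM in the cKO mice, again without overlap. Its log2 fold change of 0.56 (SE 0.110) was the smallest of the 5 genes past the threshold, close to the median of 0.55 over all genes called higher in cKO. Within the groups of libraries the difference was 0.38 and 0.71.

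Gimap8 (ENSMUSG00000064262, chr6:48647234-48660875) opens the cluster and encodes the long member with several GTPase domains. It was at 8.04, 7.91 and 5.12 CPM in the Ctrl mice and at 12.7, 13.2 and 15.1 CPM in the cKO mice, and the groups did not overlap. The log2 fold change was 0.96 (SE 0.184), with 0.68 and 1.23 within the groups of libraries. Ctrl 3 was the lowest library, and without it the log2 fold change was 0.77.

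Gimap4 (ENSMUSG00000054435, chr6:48684549-48692060) encodes a GTPase linked to the death and cytokine secretion of T cells. It was at 4.67, 2.24 and 2.37 CPM in the Ctrl mice and at 5.76, 7.43 and 7.15 CPM in the cKO mice. The groups did not overlap, but Ctrl 1 was nearer to the lowest cKO mouse than to the other Ctrl mice. The log2 fold change was 1.16 (SE 0.283), with 0.48 within the first group of libraries, to which Ctrl 1 belongs, and 1.58 within the second. With between 37 and 117 counts per library, Gimap4 passed the threshold in 7 of 11 alternative settings. It missed it without Ctrl 2, Ctrl 3, cKO 2 or cKO 3, where the log2 fold change was 0.96, 1.01, 1.09 and 1.12.

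Gimap6 (ENSMUSG00000047867, chr6:48701582-48708225, minus strand) went the other way. It encodes a cytosolic member that binds the autophagy protein GABARAPL2. It was at 63.4, 56.7 and 59.2 CPM in the Ctrl mice and at 41.5, 49.7 and 52.8 CPM in the cKO mice, so that every cKO mouse was below every Ctrl mouse. The mean was 59.8 ± 3.42 CPM in Ctrl (n = 3) and 48.0 ± 5.86 CPM in cKO (n = 3). The log2 fold change of -0.31 (SE 0.0949) did not pass the threshold. It was -0.48 within the first group of libraries and -0.13 within the second. Without cKO 3 it was -0.39 and passed the threshold, as it did with DESeq2 and without a filter on low counts. Gimap6 had between 619 and 1189 counts per library, the most of the cluster in the Ctrl mice, so that its relative counting error is the smallest there.

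Gimap7 (ENSMUSG00000043931, chr6:48718621-48724636), which encodes a GTPase known to be activated by pairing of its GTP-binding domains, was at 5.13, 8.82 and 4.16 CPM in the Ctrl mice and at 6.97, 6.73 and 7.50 CPM in the cKO mice. Ctrl 2 was above all cKO mice and the other Ctrl mice below them. The log2 fold change was 0.21 (SE 0.25), which is smaller than its error, and without Ctrl 2 it was 0.61.

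Gimap3 (ENSMUSG00000039264, chr6:48765089-48766519, minus strand), a near copy of Gimap5 that acts with it in T cells, was counted with 26, 11 and 3 reads in the Ctrl mice and 7, 17 and 18 in the cKO mice. These correspond to 1.99, 0.524 and 0.192 CPM and to 0.469, 1.08 and 1.26 CPM. The exact Poisson 95% intervals, which cover counting error only, were 1.30 to 2.92 CPM for Ctrl 1 and 0.0396 to 0.561 CPM for Ctrl 3. These intervals do not overlap, and the log2 fold change of 0.13 (SE 0.667) is smaller than its error. The deposited gene model of Gimap3 has 906 exon bases, against 903 coding bases and 2577 exon bases in GENCODE M21, so its reads come almost only from the coding sequence. The RefSeq start lies 4.33 kb beyond the end of the deposited model.

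**Figure D2:**
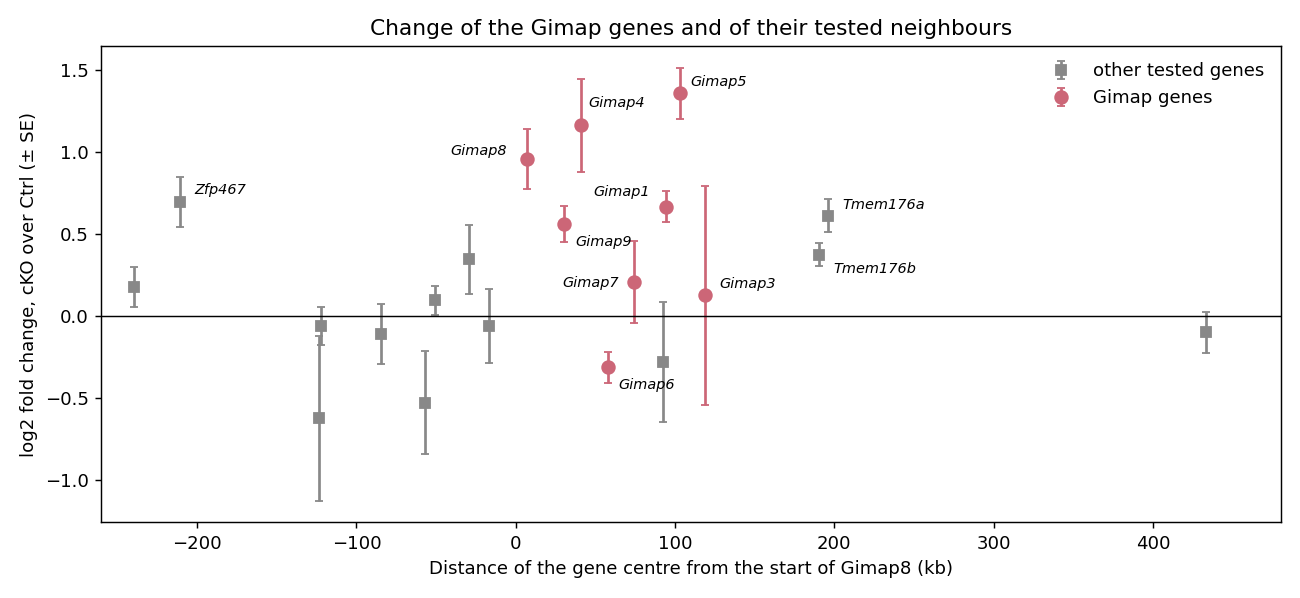
Log2 fold change, cKO over Ctrl (vertical axis, ± SE), against the distance of each gene centre from the start of Gimap8 in kb (horizontal axis). Red circles are the 8 Gimap genes and grey squares the 13 of 21 tested neighbours that lie in the drawn stretch, with names for those past the threshold. Gimap5 (1.36), Gimap4 (1.16) and Gimap8 (0.96) lie highest, Gimap6 (-0.31) lies among them below 0, and the nearest grey squares on the left lie around 0.

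The genes around the cluster are not part of its definition and were tested, although earlier results of these data were known. Gimap1os was the tested gene between the Gimap genes and did not pass the threshold. Of the 10 nearest tested genes before the cluster, 1 rose and 0 fell, and of the 10 after it, 2 rose and 0 fell, beside 3.88% and 3.79% of all genes tested. The nearest on the left, AI854703, 13.54 kb from Gimap8, had a log2 fold change of -0.06 (SE 0.226, adjusted p = 0.91, edgeR). The medians of the 10 genes on each side were 0.02 and -0.06.

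The nearest tested genes on the right were Tmem176b and Tmem176a, which lie head to head and encode related membrane proteins of immune cells. Tmem176b, 67.29 kb from Gimap3, was at 147, 175 and 161 CPM in the Ctrl mice and at 209, 202 and 215 CPM in the cKO mice. It rose with a log2 fold change of 0.37 (SE 0.0706, adjusted p = 0.0044, edgeR). Tmem176a, 74.96 kb away, was at 36.0, 40.3 and 44.2 CPM in the Ctrl mice and at 60.7, 55.1 and 68.4 CPM in the cKO mice. It rose with a log2 fold change of 0.61 (SE 0.0998, adjusted p = 0.0016, edgeR), and neither gene had overlapping groups. Beyond this pair, the next tested gene, Malsu1, at 307.3 kb, had a log2 fold change of -0.10 (SE 0.127). On the left, the gene that rose was Zfp467, a zinc finger gene 201.4 kb away, at 18.2, 15.9 and 17.3 CPM in the Ctrl mice and 21.8, 26.2 and 35.3 CPM in the cKO mice. Its log2 fold change was 0.70 (SE 0.153, adjusted p = 0.011, edgeR), and without cKO 3 it was 0.48 (adjusted p = 0.057).

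The levels of the Gimap genes were put on a scale per length, as RPKM (CPM per kilobase of exon), to compare genes with each other. In Ctrl the order was Gimap1 (19.3 ± 1.47 RPKM, SD, n = 3), Gimap6 (17.1 ± 0.977), Gimap9 (13.2 ± 1.11), Gimap7 (4.76 ± 1.94), Gimap5 (3.90 ± 0.206), Gimap8 (1.92 ± 0.451), Gimap4 (1.68 ± 0.744) and Gimap3 (0.996 ± 1.06). The neighbours in this order whose ranges overlapped were Gimap1 and Gimap6, Gimap7 and Gimap5, Gimap8 and Gimap4, and Gimap4 and Gimap3. Gimap1, Gimap6 and Gimap9 thus stood apart from the other 5 genes. Among all genes tested, the Ctrl level of Gimap1 was at percentile 78.8 and that of Gimap3 at percentile 15.3.

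In cKO the order was Gimap1 (30.5 ± 2.99 RPKM, n = 3), Gimap9 (19.4 ± 1.65), Gimap6 (13.7 ± 1.68), Gimap5 (10.0 ± 2.08), Gimap7 (5.57 ± 0.311), Gimap8 (3.74 ± 0.343), Gimap4 (3.69 ± 0.487) and Gimap3 (1.03 ± 0.459). Gimap6 and Gimap5 overlapped here, as did Gimap8 and Gimap4. Gimap9 stood above Gimap6 here and below it in Ctrl, without overlap in either group. Gimap5 and Gimap7 did not overlap here, whereas in Ctrl they did, with Gimap7 above Gimap5 in Ctrl 2 only.

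Ratios between genes of the same library do not depend on the scaling of libraries. Of all reads counted on the 8 genes, Gimap6 took 41.4%, 40.9% and 42.4% in the Ctrl mice and 24.9%, 26.1% and 25.2% in the cKO mice. Gimap5 took 6.24%, 6.75% and 6.19% in the Ctrl mice and 11.2%, 12.3% and 13.6% in the cKO mice. There were 6.63, 6.07 and 6.85 reads of Gimap6 for each read of Gimap5 in the Ctrl mice and 2.22, 2.12 and 1.86 in the cKO mice. These shares restate the fold changes of the genes on another scale. The ratio of Gimap1 to Gimap9 overlapped between the groups, with 1.56, 1.66 and 1.79 reads of Gimap1 for each of Gimap9 in the Ctrl mice and 1.80, 1.74 and 1.85 in the cKO mice. The summed level of all 8 genes was 153, 138 and 139 CPM in the Ctrl mice and 167, 191 and 209 CPM in the cKO mice. Without Gimap6 the sum was 89.8, 81.8 and 80.3 CPM against 125, 141 and 156 CPM.

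**Figure D3:**
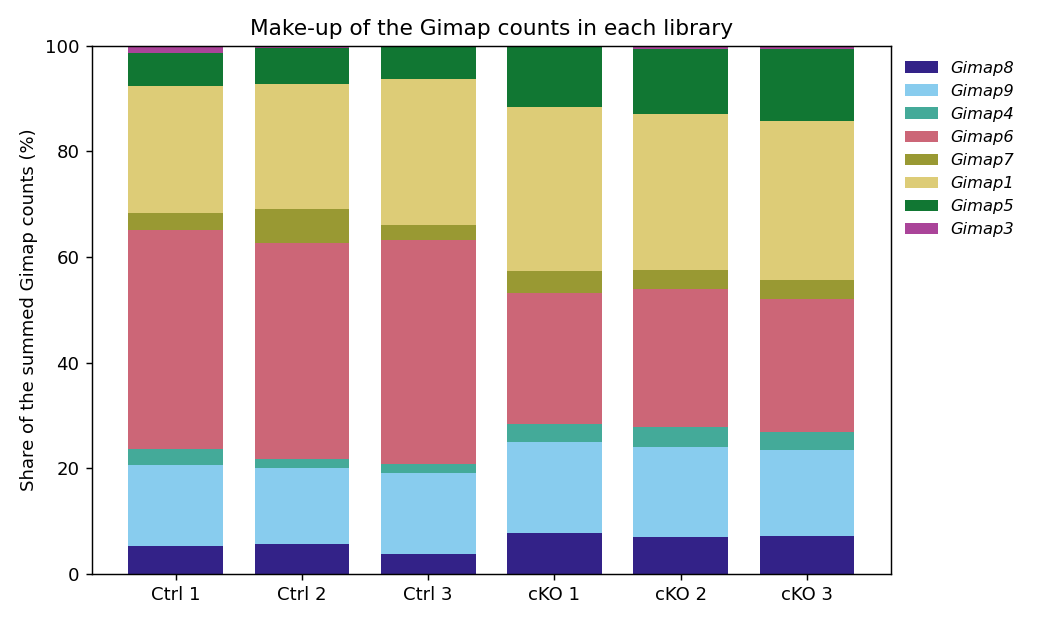
Share of each Gimap gene in the reads counted on all 8 genes, in percent (vertical axis, 0 to 100), for each of the 6 libraries (horizontal axis). Stacked colours are the genes in the order of their start, without error bars since each bar is 1 library. The share of Gimap6 lies between 40.9% and 42.4% in the Ctrl mice and between 24.9% and 26.1% in the cKO mice, and that of Gimap5 is larger in every cKO mouse.

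GIMAP genes are used by T and B lymphocytes, NK cells and endothelium as well, so markers of these cells were read in the same libraries. Of 16 T cell markers 8 were tested, and 0 rose and 1 fell, beside 3.88% and 3.79% of all genes tested. The gene that fell was the T cell receptor constant gene Trbc1, at 6.66, 3.67 and 2.18 CPM in the Ctrl mice and 0.067, 0.445 and 0 CPM in the cKO mice (log2 fold change -4.48, adjusted p = 0.00080, edgeR). With 1 mouse left out its log2 fold change lay between -6.62, without cKO 2, and -3.95, without cKO 3. Among the tested markers that did not pass, Cd4 was at 1.30, 2.34 and 2.05 CPM in the Ctrl mice and 3.55, 2.86 and 3.72 CPM in the cKO mice (log2 fold change 0.81, adjusted p = 0.13, edgeR). Thy1 (0.55, adjusted p = 0.094, edgeR) and Lat (0.31, adjusted p = 0.13) also had no overlap, with cKO above Ctrl. Bcl11b (-1.55, adjusted p = 0.066, edgeR) had none with cKO below Ctrl. Such a lack of overlap was seen in 14.0% of all genes tested on the higher side and in 13.4% on the lower. Of the markers not tested, Cd3d, Cd3e, Cd3g, Cd8a and Trac stayed at or under 0.384 CPM in all libraries, and Cd8b1 was at 0 in all of them. The summed T cell list was at 50.5 to 60.9 CPM in Ctrl and 57.8 to 64.9 CPM in cKO. Its largest parts were Lck (mean of 18.2 CPM in Ctrl and 20.8 CPM in cKO) and Lat (18.1 and 22.4 CPM).

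Of 9 NK cell markers 5 were tested, and 0 rose and 2 fell (beside 3.88% and 3.79% of all genes), Nkg7 (log2 fold change -0.85, adjusted p = 0.00082, edgeR) and Klrk1 (-2.79, adjusted p = 0.011). The summed list was at 51.6 to 65.0 CPM in Ctrl and 26.6 to 35.5 CPM in cKO. Most of this sum was Nkg7 alone, at 48.4 ± 8.38 CPM in Ctrl and 26.8 ± 3.83 CPM in cKO (SD). Of 10 B cell markers 4 were tested, and 0 rose and 1 fell, beside the same shares. Vpreb1, a part of the surrogate light chain, fell (-1.99, adjusted p = 0.028, edgeR). Blnk, a B cell signalling adaptor, was at 5.43, 7.58 and 3.26 CPM in the Ctrl mice and 8.64, 15.8 and 8.14 CPM in the cKO mice (0.98, adjusted p = 0.052, edgeR) and passed the threshold in 3 of 11 alternative settings, while Cd79a and Ms4a1 were at or under 0.286 CPM. The summed B cell list was at 21.7 to 30.0 CPM in Ctrl and 28.5 to 33.3 CPM in cKO. Its largest part was Cd79b (mean of 15.5 CPM in Ctrl and 17.4 CPM in cKO). Of 9 endothelial markers 6 were tested, and 1 rose and 1 fell, again beside 3.88% and 3.79%, with Kdr higher (1.90, adjusted p = 0.0069, edgeR) and Pecam1 lower (-0.33, adjusted p = 0.0054). Cdh5, Cldn5 and Stab2 were at or under 0.737 CPM, and the summed list was at 258 to 273 CPM in Ctrl and 221 to 235 CPM in cKO. Most of this sum came from Pecam1 (mean of 116 CPM in Ctrl and 92.2 CPM in cKO) and Eng (109 and 96.4 CPM). Procr, the endothelial protein C receptor, was counted with the stem cell markers below and not here. Calls for Klrk1, Vpreb1 and Kdr were lost when certain mice were left out, with adjusted p-values up to 0.13.

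Within the LSK gate, markers of long-term stem cells and of blood lineages moved with the genotype. Of 11 markers of long-term stem cells 8 rose and 0 fell, with a median log2 fold change of 0.80, beside 3.88% of all genes called higher. Fgd5 was at 13.1, 10.7 and 14.8 CPM in the Ctrl mice and at 37.3, 34.9 and 38.7 CPM in the cKO mice (log2 fold change 1.53, adjusted p = 2.7e-06, edgeR). Procr, the endothelial protein C receptor, rose by 1.43 on the log2 scale (adjusted p = 0.00036, edgeR), and Esam, an adhesion molecule, by 1.19 (adjusted p = 0.0017). The summed list was at 330 to 358 CPM in Ctrl and 436 to 509 CPM in cKO. Of 7 granulocyte and monocyte markers 7 fell, beside 3.79% of all genes called lower, with a median of -1.56 and sums of 2896 to 3488 CPM in Ctrl and 479 to 783 CPM in cKO. Of 5 tested erythroid markers 4 fell, and of 4 tested megakaryocyte markers 1, beside the same 3.79%. The paper calls the makeup of the LSK fraction at this time largely comparable between the groups, without showing the data. By qRT-PCR it found Klf1, Mpo and Ighm lower in cKO in sorted long-term stem cells, multipotent progenitors and lymphoid-primed progenitors, respectively. The part of the marker shifts in the Gimap values was not tested.

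Lymphoid priming is the first expression of lymphoid genes in multipotent progenitors. Of 11 such genes 0 rose and 3 fell, with a median log2 fold change of -0.66, beside 3.79% of all genes called lower. Dntt, which adds nucleotides at antigen receptor joints, was at 271, 549 and 219 CPM in the Ctrl mice and 3.62, 5.97 and 8.42 CPM in the cKO mice (log2 fold change -5.86, adjusted p = 4.9e-08, edgeR). Il7r, a receptor of early lymphoid progenitors, fell as well (-1.42, adjusted p = 0.014, edgeR), and its call was lost without Ctrl 2 or cKO 2. Of 15 tested transcription factors of lymphoid cells, 0 rose and 1 fell, beside 3.88% and 3.79% of all genes tested. Their median log2 fold change was -0.09. The gene that fell was Tcf7, a factor of early T cells (-0.95, adjusted p = 0.031, edgeR), which missed the threshold in 5 of 11 alternative settings.

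Proteins that GIMAP family members are known to work with, or that act in the same autophagy, GSK3 and BCL2 pathways, were read from a list of 14 genes, of which all were tested, 2 rose and 1 fell, beside 3.88% and 3.79% of all genes, with a median log2 fold change of -0.03. Bcl2, the survival factor of lymphocytes, was at 215, 244 and 197 CPM in the Ctrl mice and at 118, 130 and 129 CPM in the cKO mice, and fell with a log2 fold change of -0.80 (SE 0.0793, adjusted p = 1.9e-05, edgeR). Gabarapl1, an ATG8 family protein of autophagosomes, rose by 0.32 (SE 0.0788, adjusted p = 0.023, edgeR), and its call was lost without Ctrl 1, Ctrl 3, cKO 2 or cKO 3. Its relative Gabarapl2, whose protein GIMAP6 binds, did not pass the threshold, and neither did Gabarap. Their log2 fold changes were -0.11 and -0.05 (adjusted p = 0.73 and 0.78, edgeR). Mcl1, a BCL2 relative that GIMAP5 is known to stabilise in hematopoietic stem cells, had a log2 fold change of 0.23 (SE 0.0668, adjusted p = 0.049, edgeR), and its call was lost in 7 of 11 alternative settings.

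**Figure D4:**
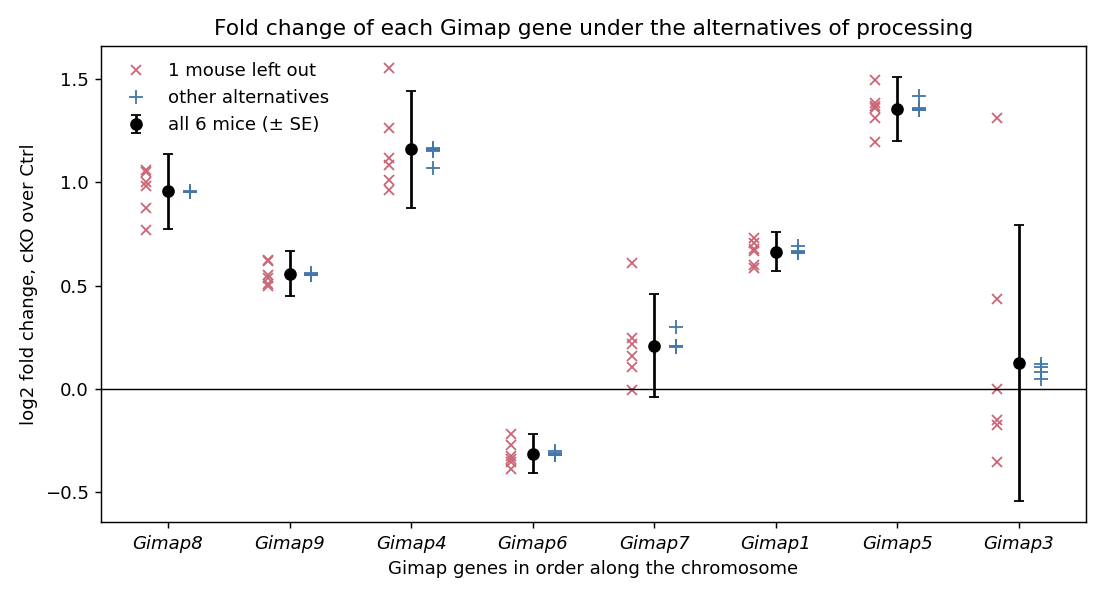
Log2 fold change, cKO over Ctrl (vertical axis), of each Gimap gene in the order of start (horizontal axis). Black circles with bars are the values from all 6 mice ± SE, red crosses the values with 1 mouse left out, and blue plus signs the values with other normalization, test, filter or covariate. Gimap8, Gimap9, Gimap4, Gimap1 and Gimap5 stay above 0 and Gimap6 below 0 in all of them, while Gimap7 and Gimap3 cross 0.

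To place the cluster among all genes, the log2 CPM of each gene was centred over the 6 libraries, and the mean absolute difference from the mean profile of the 8 Gimap genes was taken. Over 14284 genes with a mean of at least 1 CPM, the nearest were Gm43570 (0.0628), Gm37718 (0.0732), Rom1 (0.0754), Gm17024 (0.077) and Gm38292 (0.0822), on chromosomes 3, 1, 19, 12 and 9. Except for Gm38292, these genes had group means of 1.07 to 2.42 CPM, near the bound of 1 CPM. The mean profile includes Gimap3, with 3 to 26 counts per library, so that counting error enters on both sides. The median gene differed by 0.352. With single Gimap genes as the reference, and with pairs picked after the values had been seen, Gimap1 and Gimap9 differed from each other by 0.07, with 10 genes nearer to Gimap1 than Gimap9 was and 27 nearer to Gimap9 than Gimap1 was. Gimap6 and Gimap5 differed by 0.824, with 14146 genes nearer to Gimap6 than Gimap5 was.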

How the data were processed

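The authors aligned single reads of 75 bases from stranded total RNA libraries to mm10 with GSNAP 2015-12-31 and deposited raw counts per Ensembl 81 gene from featureCounts 1.5.0 (uniquely aligned reads, mapping quality of at least 1, on the strand of the gene). Values were not normalized and mice not pooled. The sample labels and the paper differ in the number of tamoxifen doses, and the labels are followed here. Symbols came from GENCODE M21 (98.8% of identifiers named). From the counts, edgeR 4.0.16 in R 4.3.3 was run on all 6 libraries with TMM factors, filterByExpr (15184 genes kept), genotype as the only term and the quasi-likelihood test, with Benjamini-Hochberg adjustment over all genes tested and a threshold of 0.05. SE is the absolute log2 fold change over the square root of F. CPM used the TMM factors. Differences within groups of libraries and centred profiles used log2 CPM with a prior count of 2. RPKM used the deposited exon length. The steps were tested on simulated data.

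The Gimap genes, neighbours and gene lists were chosen with earlier results of these data known. Named genes were all Gimap genes, Setd1b, neighbours past the threshold or nearest to the cluster, in each list those with the smallest adjusted p and defining markers near 0, and the 5 genes nearest to the mean Gimap profile. Malsu1, Cd4, Lat, Lck, Gabarap and Gabarapl2 were named after their values had been seen. Alternatives were the size factors of DESeq2 1.42.0, its Wald test, no filter, at least 10 counts in every library, the group of library numbers as a covariate, and leaving out each mouse. Promoter sequences are from RefSeq (GRCm38.p6) and coding sequences from GENCODE M21. Some items of the gene lists are not reported here.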

Additional observations from a re-analysis of the deposited data

How the results depend on the processing

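Over 11 alternatives, between 4 and 5 Gimap genes passed the threshold on the higher side, and Gimap4 was the gene lost. Gimap6 passed it on the lower side, as 1 gene, with the Wald test of DESeq2, without a filter on low counts and without cKO 3, so that leaving out 1 mouse gave 0 to 1. Over all genes tested, leaving out 1 mouse gave 604 to 1125 genes past the threshold, against 1164 with all mice and 1682 without a filter, with 665 without Ctrl 3, 604 without cKO 2 and 739 without cKO 3. Fold changes that changed sign all had errors larger than themselves. With 1 mouse left out, Gimap7 lay between -0.006 (without Ctrl 3) and 0.61, Gimap3 between -0.36 and 1.31, and AI854703 between -0.23 and 0.086. Gimap3 was at -0.18 without Ctrl 2, -0.36 without Ctrl 3, -0.0006 without cKO 2 and -0.15 without cKO 3, and AI854703 at 0.086 without Ctrl 1. The cause was not tested. At least 10 counts in every library removed Gimap3. Ranked by CPM in place of RPKM, 3 of the 8 genes kept their rank in Ctrl, since the exon lengths differ, and leaving out 1 Ctrl mouse kept 4 to 8 ranks. Gimap3, with 3 to 26 counts per library, had the fewest reads. No paired analysis was possible because the labels give the mice no replicate numbers and tie no Ctrl mouse to a cKO mouse.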

Other observations

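Other families of GTPases that act in immune cells were read from a list of 17 immunity-related GTPases, guanylate-binding proteins and Mx genes. These are known to be induced by interferon. The immunity-related GTPases and guanylate-binding proteins are known to act at the membranes of vacuoles. All 17 were tested, 3 rose and 1 fell, beside 3.88% and 3.79% of all genes tested, with a median log2 fold change of 0.28. Irgm2 was at 51.6, 48.2 and 39.4 CPM in Ctrl 1 to 3 and 65.8, 79.4 and 64.9 CPM in cKO 1 to 3, and rose with a log2 fold change of 0.60 (SE 0.106, adjusted p = 0.0029, edgeR). Gbp2 was at 54.2, 46.6 and 45.7 CPM in the Ctrl mice and 76.1, 71.9 and 66.7 CPM in the cKO mice (log2 fold change 0.55, SE 0.0875, adjusted p = 0.0012, edgeR). Gbp7 rose too (0.34, SE 0.074, adjusted p = 0.0098, edgeR). Gbp3 fell, from 118, 102 and 103 CPM to 89.3, 80.7 and 75.6 CPM (-0.40, SE 0.0815, adjusted p = 0.0071, edgeR).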
